A study of Mus musculus with 24 samples.

Results

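Very long genes were selected on 2 values from the liver messenger RNA table: a genomic span, from first to last annotated base, of at least 300 kb, and a mean level over all libraries of at least 2 CPM, the count divided by the library's total and scaled to 1000000 counts. Esr1, Thrb, Reln and Tox met both criteria and were left out by the choice of the set. This gave 165 genes of the 22429 in the table. All 165 are protein-coding, and all passed the filter on low counts that left 12690 genes for testing. The median span was 405 kb, the range was 300.5 to 2961 kb, and 50 genes spanned over 500 kb. The level used to choose the genes was their mean over every library. A gene high in only some groups could pass through it. Gpc3, Rarb, Rad51b, Med12l, Arhgap6, Wwox and Bbs9, among others, did so in part.

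The study compared livers of male F1 Hybrid C57BL6J/FVBN mice in 6 groups of 4 libraries each. The 3 wild-type groups (Ercc1 +/+) were unrestricted mice of 16 weeks of age, unrestricted mice of 104 weeks, and mice of 16 weeks restricted by 30%. The 3 groups of Ercc1Δ/− mice, named Ercc1 d/- in the sample titles and called the mutant here, were unrestricted mice of 7 weeks, unrestricted mice of 16 weeks, and mice of 16 weeks restricted by 30%. The free intake was 3.0 g a day in the wild type and 2.3 g in the mutant, and the restricted intake was 2.1 g and 1.6 g. Restriction began at 7 weeks and was complete from 9 weeks. All groups were given the same synthetic pellets, and none was fed on the day of sacrifice before the liver was taken. The mutant carries a truncated and a null allele of Ercc1 in every cell of the body, so no cell type of the liver is spared. Samples carry numbers within their group, without a statement that they came from different animals, and the spread behind every p-value is then only that among the samples, which may be technical.

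ERCC1 pairs with XPF in the nuclease that cuts the damaged strand in nucleotide excision repair, and it also acts in the repair of crosslinks and of double-strand breaks. Transcription-coupled repair is the branch of excision repair that starts from an RNA polymerase II stalled at a lesion. A polymerase that copies a very long gene passes more template for each finished transcript than one that copies a short gene, which is why long genes are used to look for damage that blocks transcription. Counts of polyadenylated RNA record neither lesions nor polymerases, and transcription-blocking damage itself was not tested here.

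Most of the length of these genes is intron. Exons covered a median of 2.54% of the span, against 19.9% in the other genes with a mean of at least 2 CPM, and the median number of exons in the principal transcript was 18 against 9. Together the 165 genes took 0.232 to 0.47% of the counts of a library. A long gene span does not always mean a long transcript. In 130 of the 165 the principal transcript, the isoform ranked first in the GENCODE M21 annotation, itself spanned at least 300 kb. In the other 35 it was shorter, and in 10 it was under 100 kb. Fgfr2, a receptor for fibroblast growth factors, had the longest span of all, 2961 kb on chr7, but its principal transcript spans 102483 bases. B3galt1, a galactosyltransferase gene, spans 557 kb, but its principal transcript is a single exon of 4977 bases. Tmem267 and Cacna1a are annotated in GENCODE M21 with spans of 123021 and 251807 bases, under the limit, although the deposited lengths are above it. The genes nearest the limit of span were Pam, Cacna1a and Prr16 inside it, from 300532 to 302311 bases, and Akap13, Atp2b2 and Myo1d outside, from 297899 to 299075 bases. Nearest the limit of level were Rarb, Lama2 and Arhgap6 inside, at 2.086 to 2.148 CPM, and Plcb4, Pde4d and Fry outside, at 1.931 to 1.998 CPM.

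The promoters of 4 genes described below are shown because they cover where transcription starts, which the choice of genes by span did not use. They come from RefSeq on GRCm38.p6 and run from 250 bases before to 50 bases after the start, on the coding strand, with CG dinucleotides in capitals. Immp2l (chr12:41023840-41024139, plus strand), Dpyd (chr3:118561930-118562229, plus strand) and Adk (chr14:21052324-21052623, plus strand) were lower in the mutant, and Gpc3 (chrX:52613925-52614224, minus strand) was higher.
Immp2l: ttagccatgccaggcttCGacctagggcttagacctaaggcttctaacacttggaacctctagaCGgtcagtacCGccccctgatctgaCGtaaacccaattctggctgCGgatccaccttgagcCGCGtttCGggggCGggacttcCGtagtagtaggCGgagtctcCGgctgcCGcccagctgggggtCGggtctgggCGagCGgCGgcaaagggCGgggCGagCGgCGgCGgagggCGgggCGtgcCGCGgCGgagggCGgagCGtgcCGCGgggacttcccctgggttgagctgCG
Dpyd: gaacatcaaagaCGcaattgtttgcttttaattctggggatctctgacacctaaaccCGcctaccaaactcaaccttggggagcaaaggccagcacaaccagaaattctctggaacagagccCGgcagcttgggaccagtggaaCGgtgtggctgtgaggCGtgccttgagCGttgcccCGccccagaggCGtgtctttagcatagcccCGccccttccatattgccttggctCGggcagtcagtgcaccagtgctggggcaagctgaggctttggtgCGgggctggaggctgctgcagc
Adk: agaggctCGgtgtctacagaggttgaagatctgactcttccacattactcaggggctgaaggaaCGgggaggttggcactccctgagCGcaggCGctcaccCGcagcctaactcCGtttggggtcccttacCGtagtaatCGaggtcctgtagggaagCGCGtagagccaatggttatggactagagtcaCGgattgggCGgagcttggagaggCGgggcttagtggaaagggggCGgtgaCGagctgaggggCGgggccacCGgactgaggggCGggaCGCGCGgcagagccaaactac
Gpc3: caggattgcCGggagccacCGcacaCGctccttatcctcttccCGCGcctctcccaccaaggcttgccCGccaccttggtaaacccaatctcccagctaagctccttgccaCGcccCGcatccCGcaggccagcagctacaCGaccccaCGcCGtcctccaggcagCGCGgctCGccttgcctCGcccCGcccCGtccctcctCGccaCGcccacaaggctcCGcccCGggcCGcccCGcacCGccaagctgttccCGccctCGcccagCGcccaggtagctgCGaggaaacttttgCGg
These windows hold 32, 11, 21 and 30 CG dinucleotides, in the order shown. Of the 165 genes, 92 had a RefSeq window starting within 200 bases of the principal transcript's first base, and their median was 21.5 CG dinucleotides, beside 21 in 7409 other genes with a mean of at least 2 CPM. The median was 25 in the 39 of them called lower in the freely fed mutant and 20 in the 52 not called. The letters TATAAA, searched on both strands, occurred in 3.26% of the 92 windows and in 7.44% of the others, and in none of the 4 shown. CACGTG occurred in 7.61% against 10.7%, and AGGTCA in 12% against 12.4%, on both strands, and in none of the 4. These are matches of letters and not sites of binding.

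Total counts were 13.3 to 20.6 M (mega) per library. From here on, levels in libraries and groups are CPM on the library total times its TMM factor. This factor scales the libraries to each other and ranged from 0.825 to 1.16. Ercc1 itself stood at 2.59 ± 0.413 CPM (SD, n = 4) in the wild type fed without restriction and at 1.51 ± 0.414 CPM in the mutant on the same diet, both at 16 weeks, a log2 fold change of -0.78 ± 0.28 (SE) that missed the threshold (edgeR quasi-likelihood, Benjamini-Hochberg adjusted p = 0.0754). Under restriction it was lower in the mutant, at -1.18 ± 0.27 (adjusted p = 0.0033). Hepatocyte markers were high in all 24 libraries, with 10 markers summing to 89554 to 173697 CPM. On free feeding at 16 weeks the sum was 96663 to 119138 CPM in the mutant against 115709 to 132822 CPM, with 1 marker lower and none higher. Under restriction it was 99364 to 130091 CPM in the mutant against 131574 to 173697 CPM, without overlap, with 3 lower and 1 higher. Macrophage and Kupffer cell markers were higher in the mutant, in 7 of 11 genes on free feeding (summed level 165 to 332 CPM against 111 to 170) and in 11 of 11 under restriction (255 to 358 against 88.5 to 156). Of 12 stellate cell markers 1 was higher and none was lower in the freely fed mutant, and of 10 endothelial markers none was called. The part of these cells in the levels of the long genes was not tested. In bulk RNA, fewer cells of a type and less RNA per cell cannot be told apart.

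In the livers of freely fed mice at 16 weeks, 67 of the 165 very long genes were lower in the mutant and 2 were higher. Over all 12690 genes tested, 4.85% were lower and 5.1% higher by the same call, an adjusted p under 0.05 in edgeR's quasi-likelihood test. The median log2 fold change of the very long genes was -0.70, with quartiles of -1.03 and -0.31, beside a median of 0.02 over all genes. A lower value than in wild type was found in 146 of the 165, called or not. In 97 of the 165 all 4 mutant libraries lay below all 4 wild-type libraries, which held for 11.4% of all genes. Leaving out each library in turn left 51 to 63 genes called.

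Immp2l, a subunit of the peptidase of the inner mitochondrial membrane, had the largest fall. It lies at chr12:41024090-41955588 of GRCm38 and is transcribed across 931499 bases to make a principal transcript of 1147 bases in 7 exons. It was measured at 21.5, 15.6, 14.8 and 15.6 CPM in the wild type and at 4.22, 3.3, 3.2 and 2.41 CPM in the mutant. The groups stood well apart, and the lowest wild-type library was more than 3 times the highest mutant one. The log2 fold change was -2.36 ± 0.21 (edgeR adjusted p = 5.98e-08).

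Med12l, a relative of the Mediator subunit Med12, fell by nearly as much. Its means were 3.95 CPM in the wild type and 0.776 CPM in the mutant. It thus met the limit of 2 CPM partly through the group where it stood higher. Its levels were 3.5, 3.99, 4.13 and 4.18 CPM in the wild type and 1.07, 0.683, 0.142 and 1.21 CPM in the mutant, again without overlap, and the log2 fold change was -2.32 ± 0.34 (edgeR adjusted p = 4.56e-05). Exons of 2 other genes overlap those of Med12l, and whether counting used strand is not given in the sources used here. Among the 142 very long genes without such an overlap, 57 were lower and 1 was higher, with a median of -0.68.

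Among enzymes and transporters, 14 of 25 were lower and none was higher, with a median log2 fold change of -0.90. Beside this and the role groups that follow, 40.6% of all 165 genes and 4.85% of all genes tested were lower. Whether a role group differs from the other very long genes was not tested. Dpyd, which starts the breakdown of pyrimidines and is a gene of 871 kb on chr3, was at 535, 501, 488 and 483 CPM in the wild type and at 104, 121, 119 and 153 CPM in the mutant. The lowest wild-type library was thus more than 3 times the highest mutant one, and the log2 fold change was -2.01 ± 0.18 (edgeR adjusted p = 6.89e-08). Adk, the adenosine kinase gene, was at 533, 472, 466 and 390 CPM against 222, 112, 217 and 254 CPM, with no overlap and a log2 fold change of -1.21 ± 0.17 (adjusted p = 4.2e-05). Wwox, an oxidoreductase gene of 913 kb, was at 6.44, 4.72, 3.83 and 3.63 CPM against 0.692, 1.59, 1.21 and 1.59 CPM, a log2 fold change of -1.87 ± 0.27 (adjusted p = 4.93e-05). The 3 genes share the pattern that every mutant library lay below every wild-type one. Wwox, at a mean of 4.66 CPM in the wild type and 1.27 CPM in the mutant, met the limit of 2 CPM partly through the wild type. Sugct, a CoA-transferase of glutarate metabolism, fell by 1.61, Msra, which repairs oxidised methionine, by 1.09, Pcca, a subunit of propionyl-CoA carboxylase, by 1.03, and Cpq, a carboxypeptidase, by 1.02 on the log2 scale.

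In the signalling group, 16 of 33 were lower and none was higher, with a median of -0.81. They included the inositol trisphosphate receptors Itpr1 and Itpr2, channels that release calcium from the endoplasmic reticulum. Itpr1 fell by 1.14 and Itpr2 by 1.19 on the log2 scale. Itpr2 was at 46.2, 50.8, 52.3 and 51.5 CPM in the wild type and at 16, 21.5, 21.4 and 28.8 CPM in the mutant. Of the receptor tyrosine phosphatases, Ptprk fell by 1.34 and Ptprd by 1.17. Pik3c2g, a class II phosphoinositide 3-kinase, fell by 1.60, from 12.1, 9.58, 9.46 and 9.93 CPM to 2.52, 3.19, 4.56 and 3.3 CPM. None of these groups of 4 overlapped.

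Genes of vesicle traffic and protein handling were lower in 12 of 24 cases and higher in none, with a median of -0.80. Besides Immp2l, Cadps2, which primes secretory vesicles, fell by 1.68, Bbs9, of the BBSome that sorts cargo to cilia, by 1.27, and Pcsk5, a proprotein convertase, by 0.71. Of genes of adhesion, polarity and junctions 9 of 26 were lower and 1 was higher, with a median of -0.54. Magi1, a scaffold of tight junctions, was at 19, 29.5, 24.7 and 23.4 CPM in the wild type and at 8.37, 9, 5.77 and 10.5 CPM in the mutant, a log2 fold change of -1.52 ± 0.24 (edgeR adjusted p = 0.000126). Pard3, of the apical polarity complex, fell by 0.91, with levels of 56.8, 58.5, 66 and 56.1 CPM against 28.3, 32.1, 33 and 33 CPM. Utrn, a relative of dystrophin, fell by 1.39, while Dmd itself, the dystrophin gene of 2257 kb, was at -0.55 ± 0.24 and was not called (adjusted p = 0.162).

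Among transcription and chromatin regulators 8 of 27 were lower and 1 was higher, with a median of -0.37, and among genes of genome maintenance, cell division and RNA handling 5 of 12 were lower and none was higher, with a median of -0.81. Cux1, a homeodomain factor, fell by 0.90 and Arid1b, a subunit of the BAF remodelling complex, by 0.70 on the log2 scale. Babam2, of the BRCA1-A complex, fell by 0.91. Rad51b, a gene of homologous recombination, was at 3.94, 2.26, 2.39 and 2.4 CPM against 1.01, 0.797, 0.926 and 1.72 CPM, a log2 fold change of -1.31 ± 0.40 (edgeR adjusted p = 0.0341). Its call was lost on leaving out wild-type replicate 1, 3 or 4 or mutant replicate 1, 2 or 3, with adjusted p up to 0.12. The role groups cover 147 of the 165 genes.

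The 2 genes that were higher were Gpc3 and Gse1, and they are named because of that. Gse1, whose product is found with the LSD1 and HDAC corepressors, was at 10.3, 13.9, 19.2 and 16.9 CPM in the wild type and at 27.3, 19.5, 24.8 and 22.2 CPM in the mutant, a log2 fold change of 0.64 ± 0.17 (edgeR adjusted p = 0.0137). The principal transcript of Gse1 spans under 100 kb. Its call was lost without wild-type replicate 1 (adjusted p = 0.0664) or mutant replicate 1 (0.0585). Gpc3, a glypican of fetal liver and liver tumours, was at 0.389, 2.79, 0.838 and 0.891 CPM against 2.96, 2.34, 2.28 and 5.97 CPM. Its means were 1.23 CPM in the wild type and 3.39 CPM in the mutant. It thus met the limit of 2 CPM partly through the group where it stood higher. The groups overlapped, and the log2 fold change of 1.48 ± 0.46 (adjusted p = 0.0385) was not called without wild-type replicate 1, 3 or 4 or mutant replicate 1 or 4 (adjusted p up to 0.17), and ranged from 1.05 to 2.26 over the libraries left out.

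**Figure D1:**
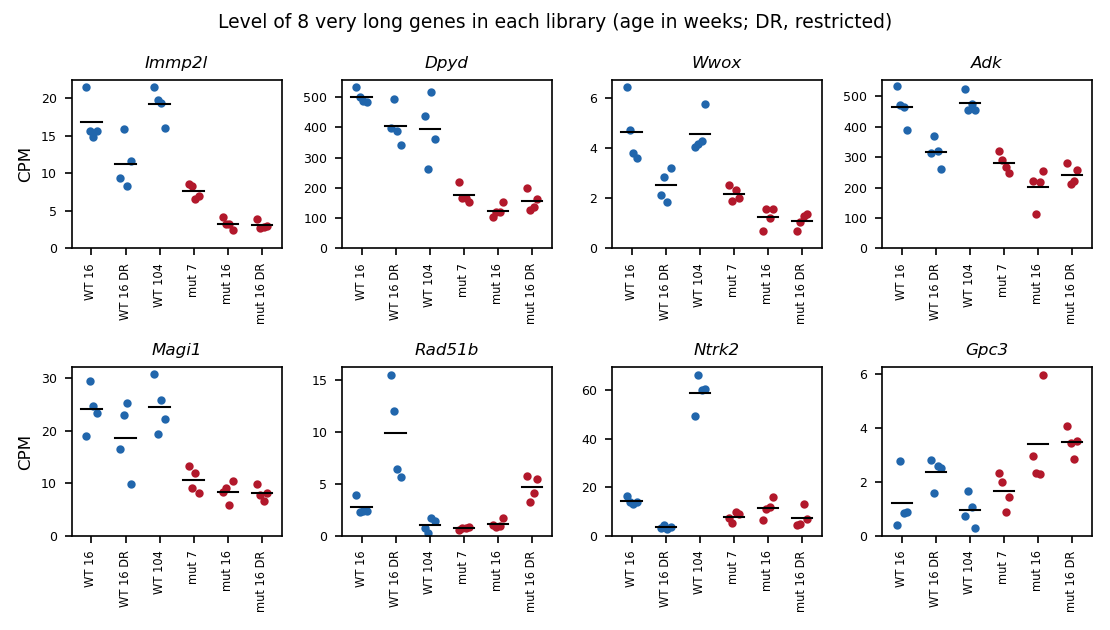
Level of 8 very long genes in every library, in CPM on axes that start at 0, with 1 point per library and a line at the mean of each group of 4 (blue, wild type; red, mutant; DR, restricted). On free feeding at 16 weeks the mutant points of Immp2l, Dpyd, Wwox, Adk and Magi1 all lie below the wild-type ones, those of Rad51b lie higher under restriction than on free feeding in either genotype at 16 weeks, those of Ntrk2 are highest in old wild-type mice, and those of Gpc3 overlap between the genotypes.

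Most of the genes that fell had a long transcript as well as a long gene. The 130 genes whose principal transcript is at least 300 kb held 64 of the 67 that were lower, with a median log2 fold change of -0.83. In the 35 with a shorter principal transcript 3 were lower and the median was -0.27, and in the 10 with one under 100 kb none was lower and the median was -0.16. Across the 165 genes the Spearman correlation of the fold change was -0.21 with the gene span, -0.47 with the principal transcript's span, 0.14 with the exonic length and 0.00 with the mean level. These describe genes measured in the same 8 libraries, which are not independent replicates, and the split by transcript was chosen after the data were seen.

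**Figure D2:**
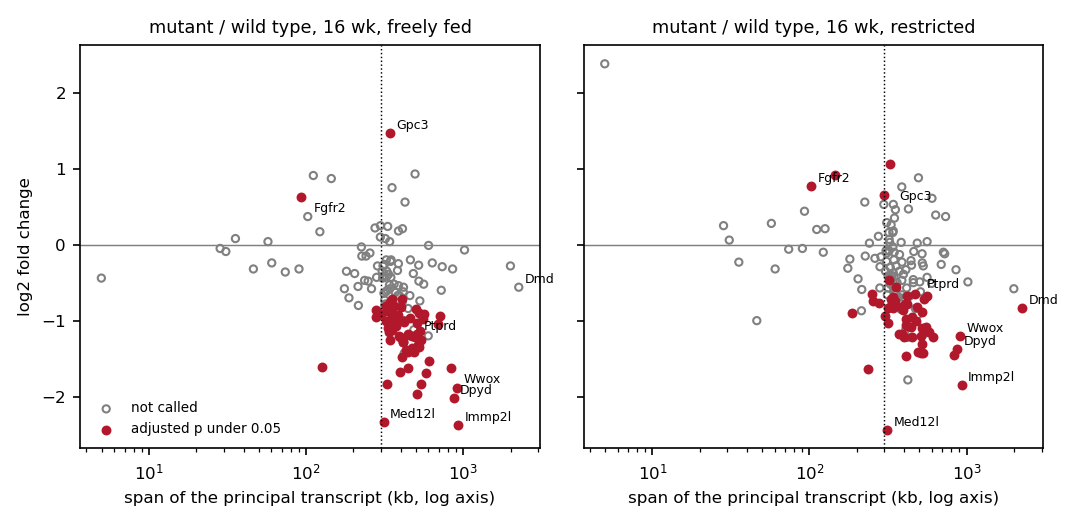
Log2 fold change of the 165 very long genes, mutant over wild type, against the span of the principal transcript in kb on a log axis, on free feeding (left) and under restriction (right), with called genes in red and the dotted line at 300 kb. On free feeding 64 of the 67 genes called lower lie to the right of the line, and under restriction 46 of 51.

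Shorter genes were graded by span as well. Among genes with a mean of at least 2 CPM, the median log2 fold change in the freely fed mutant was 0.08 in 2604 genes under 10 kb, 0.05 in 3550 genes of 10 to 30 kb, -0.02 in 3110 genes of 30 to 100 kb and -0.24 in 1028 genes of 100 to 300 kb. It was -0.66 in the 115 very long genes under 500 kb and -0.83 in the 50 longer ones. The share of genes called lower rose in the same order, from 2.57 to 3.55, 5.18, 13.7, 37.4 and 48%. As a value for each library that makes no use of the very long genes, the slope of the log2 level, centred on each gene's mean, was taken on log10 span over the 12432 tested genes under 300 kb. Its mean was -0.0884 ± 0.0596 (SD, n = 4) in the freely fed mutant at 16 weeks and 0.0677 ± 0.0639 in the wild type, in log2 units for each unit of log10 span. The difference of -0.156 had an exact two-sided permutation p of 0.0571 and was not significant after adjustment over 6 comparisons (adjusted p = 0.171). The smallest p that 4 against 4 libraries can give is 0.0286. A comparison at that p can pass adjustment over 6 only if several others also reach it, so failing to pass decides little. In the alternative settings of the slope that kept to genes under 300 kb, this difference lay between -0.177 and -0.135. Over all tested genes, which brings the very long genes back in, it was -0.195. The exact permutation p was 0.0286 in each of these settings and the adjusted p 0.0571 to 0.0857.

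**Figure D3:**
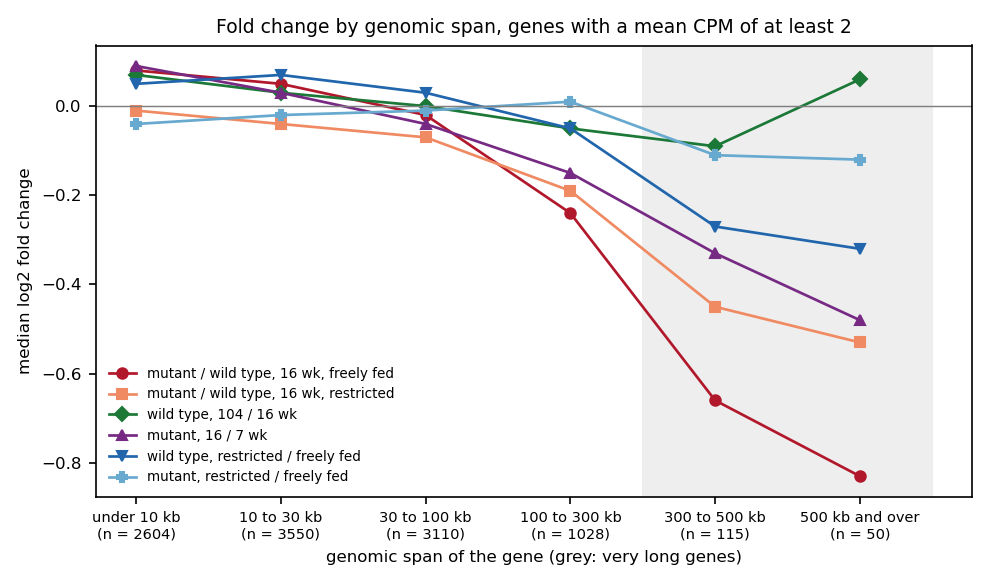
Median log2 fold change of genes with a mean of at least 2 CPM in 6 classes of genomic span, for the 6 comparisons of 2 groups, with the number of genes under each class and the very long genes shaded. The freely fed mutant runs from 0.08 in genes under 10 kb to -0.83 in genes of 500 kb and over. Old against young wild-type mice declines from 0.07 in genes under 10 kb to -0.09 in genes of 300 to 500 kb, and stands at 0.06 in the longest.

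In restricted mice of 16 weeks, 51 of the 165 genes were lower in the mutant and 4 were higher, against 8.7% lower and 9.58% higher among all genes tested. The median log2 fold change was -0.48, beside -0.03 over all genes, and 131 values were below 0. The groups did not overlap in 30 of the genes that stood lower, against 7.13% of all genes. By span, the median was -0.01 in genes under 10 kb and -0.19 in genes of 100 to 300 kb, and -0.45 and -0.53 in the very long genes under and over 500 kb. The slope on span under 300 kb differed by -0.0693 (exact permutation p = 0.257, adjusted p = 0.386), by -0.02 without mutant replicate 1, by -0.106 without mutant replicate 2, and by 0.026, with the sign turned, when exonic length was a second term. This comparison shares no library with the one on free feeding. The 39 genes lower in both are 58.2% of the 67 and 76.5% of the 51. Their median log2 fold change was -1.19 on free feeding and -1.07 under restriction, and over all 165 genes the 2 sets of fold changes correlated with Pearson's r = 0.682, a description across genes that share a model and a normalization.

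Immp2l was at 9.44, 15.9, 8.28 and 11.6 CPM in the restricted wild type and at 3.97, 2.68, 2.92 and 2.98 CPM in the restricted mutant, a log2 fold change of -1.84 ± 0.21 (edgeR adjusted p = 1.2e-06). Med12l was at 3.18, 2.72, 5.97 and 4.43 CPM against 0.875, 0.643, 0.642 and 0.842 CPM (-2.43 ± 0.34, adjusted p = 1.86e-05). Here too the wild type, where Med12l stood higher, carried it in part over the limit of 2 CPM. Dpyd was at 397, 493, 388 and 343 CPM against 201, 128, 137 and 165 CPM (-1.36 ± 0.18, adjusted p = 1.03e-05). In all 3 genes the groups stood apart, although the restricted wild-type libraries spread more widely than the freely fed ones. Pard3 fell by 1.07, Itpr2 by 1.17, Magi1 by 1.2, Cpq by 1.19, Fggy, a carbohydrate kinase, by 1.16 and Sugct by 1.44 on the log2 scale. Chsy3, which builds chondroitin, had one of the largest falls, at -1.63 ± 0.27 (adjusted p = 0.000171), and was at -0.46 ± 0.27 on free feeding (adjusted p = 0.309). Adk was at 315, 369, 321 and 260 CPM in the restricted wild type and at 281, 213, 221 and 258 CPM in the restricted mutant. These overlapped, and Adk was not called (-0.38 ± 0.17, adjusted p = 0.128).

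Dst, Fgfr2, Ntrk2 and Rarb were higher in the restricted mutant. Dst, a linker of the cytoskeleton, was at 148, 157, 129 and 187 CPM in the wild type and at 254, 316, 204 and 210 CPM in the mutant, without overlap (0.67 ± 0.14, edgeR adjusted p = 0.00172). The other 3 overlapped. Fgfr2 was not called without wild-type replicate 1 or 2 or mutant replicate 3 or 4 (adjusted p up to 0.13), Ntrk2 not without mutant replicate 3 (0.0963), and Rarb, a retinoic acid receptor, not without wild-type replicate 2 or 4 or mutant replicate 3 or 4 (up to 0.175). Rarb averaged 3.87 CPM in the restricted mutant and 2 CPM in the restricted wild type. It thus met the limit of 2 CPM partly through the group where it stood higher. A fit to these 2 groups alone called 20 lower and 1 higher. By role, 9 of 25 enzymes and transporters, 9 of 33 signalling genes, 9 of 24 traffic genes, 7 of 26 adhesion genes, 8 of 27 transcription regulators and 4 of 12 genes of genome maintenance and RNA handling were lower. Beside these, 30.9% of all 165 genes and 8.7% of all genes tested were lower.

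**Figure D4:**
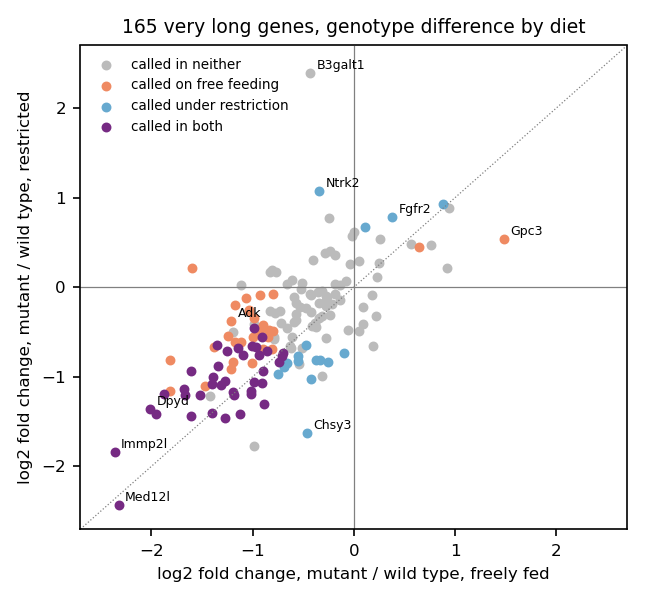
Log2 fold change of each of the 165 very long genes, mutant over wild type, on free feeding (horizontal axis) and under restriction (vertical axis), coloured by the comparison in which the gene was called, with the dotted line at equal values. The 39 genes called lower in both lie at the lower left, and Gpc3, Ntrk2 and B3galt1 lie away from the line.

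Several very long genes are on a list of long genes at known common fragile sites, stretches of the genome that break when replication is slowed. The list was made by gene symbol, and whether these genes lie at fragile sites in the mouse liver was not tested. Of 11 such genes among the 165, 7 were lower on free feeding (Immp2l, Wwox, Dpyd, Magi1, Rad51b, Ptprd and Pard3), with a median of -1.19 in the 11, and 7 under restriction (the same but for Dmd in place of Ptprd), with a median of -1.07. None was higher in either. Of all 165 genes 40.6 and 30.9% were lower in the same comparisons, and of all genes tested 4.85 and 8.7%. Whether the fragile-site genes differ from the other very long genes was not tested. Under restriction Rad51b was not called without wild-type replicate 1 or 2 or mutant replicate 2 or 3 (adjusted p up to 0.128), and Dmd not without wild-type replicate 3 or mutant replicate 1 or 2 (up to 0.0996). Macrod2, of 1998 kb, was called in neither, at -0.27 ± 0.25 (edgeR adjusted p = 0.566) and -0.57 ± 0.25 (0.113). Exoc4, an exocyst subunit, was at -0.59 ± 0.28 (0.2) and -0.11 ± 0.30 (0.846).

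The genes of the repair pathway and of the polymerase itself were examined beside them. Of 26 factors of nucleotide excision and transcription-coupled repair, 1 was higher and none was lower in the freely fed mutant: Ercc3, a helicase of TFIIH, went from 21.7 ± 1.34 to 29.7 ± 1.84 CPM (0.45 ± 0.12, edgeR adjusted p = 0.0156). Under restriction Ercc3 and Uvssa were higher and Ercc1 lower. Of 43 genes of RNA polymerase II and elongation, 2 were higher and 1 lower on free feeding, where 5.1% of all genes were higher and 4.85% lower. Under restriction 1 was higher and 7 lower, where 9.58% of all genes were higher and 8.7% lower. The medians of the 43 were 0.07 and -0.19. In the wild type, 8 of these 43 were higher under restriction than on free feeding and none was lower, with a median of 0.31. Of all genes 6.3% were higher and 7.3% lower in that comparison.

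In the freely fed mutant, 6 of the very long genes were lower at 16 than at 7 weeks and 1 was higher. Few genes changed at all, with 0.331% of all genes lower and 0.355% higher. The median log2 fold change was -0.41, beside 0.00 over all genes, and 135 of the 165 values were below 0. All 4 older libraries lay below all 4 younger ones in 58 genes, which held for 6.45% of all genes. Immp2l was at 8.65, 8.31, 6.61 and 7 CPM at 7 weeks and, with no overlap, at 4.22, 3.3, 3.2 and 2.41 CPM at 16 weeks (-1.22 ± 0.21, edgeR adjusted p = 0.00346). Adgrv1, a large adhesion receptor, was at 9.54, 6.48, 13 and 11.6 CPM and then at 1.64, 2.16, 1.78 and 3.81 CPM (-2.10 ± 0.34, adjusted p = 0.0026). Both calls held whichever library was left out. Pcca, Bcas3 and Cadps2 were also lower and Gse1 higher, and each of these 4 calls was lost without 7-week replicate 1 or 3 or 16-week replicate 1. The count of 7 called genes fell to 2 without 7-week replicate 1 or 3 or 16-week replicate 1, and to 4 without 7-week replicate 2 or 16-week replicate 4. A fit to these 2 groups alone called 28 lower and 3 higher. The span slope under 300 kb was lower at 16 weeks by 0.14 (first minus second group -0.14, exact permutation p = 0.0286, adjusted p = 0.171).

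Few very long genes were called in old wild-type mice. At 104 against 16 weeks, 10 of the very long genes were lower and 4 were higher, beside 5% and 5.13% of all genes. In 22 all 4 old libraries lay below all 4 young ones, which held for 8.74% of all genes. The median log2 fold change was -0.07, with 0.02 over all genes. It was -0.09 in the 115 very long genes under 500 kb and 0.06 in the 50 genes of over 500 kb. Ntrk2, the receptor for brain-derived neurotrophic factor, had the largest rise. It was at 16.2, 13.8, 12.9 and 14 CPM at 16 weeks and at 49.2, 66.2, 59.9 and 60.4 CPM at 104 weeks, with no overlap (2.05 ± 0.27, edgeR adjusted p = 2.23e-05). Fgfr2 rose from 9.61, 8.91, 12 and 11.5 CPM to 19.9, 25.6, 18.8 and 25.9 CPM (1.10 ± 0.25, adjusted p = 0.0048). Adgrv1 and Pde4b, a phosphodiesterase, were the other 2. Adgrv1 was called in 1 of 8 fits that left out a library (adjusted p up to 0.112, lost without every library but 104-week replicate 4). Pde4b was called in 3 (up to 0.302, lost without 16-week replicates 2, 3 or 4 or 104-week replicates 1 or 3).

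Caln1, a calcium-binding protein of neurons, had the largest fall with age. It was at 6.44, 6.72, 5.45 and 6.51 CPM and then at 2.83, 1.58, 2.22 and 1.89 CPM, without overlap (-1.56 ± 0.28, edgeR adjusted p = 0.000549). Vwa8, a mitochondrial ATPase, fell by 0.80 on the log2 scale. Immp2l was at 21.5, 19.8, 19.4 and 16.1 CPM in the old mice, which lies within the range of the young ones (0.19 ± 0.19, adjusted p = 0.594). Dpyd was at 438, 261, 518 and 361 CPM (-0.35 ± 0.18, adjusted p = 0.228). Replicate 2 of the old mice stood apart from the other 3. Over the 165 genes, the median log2 deviation from each gene's own mean over all 24 libraries was -0.041 in it and 0.412, 0.459 and 0.417 in the others. Without it 3 genes were lower and 6 higher, the median became 0.01, and the difference of the span slope changed from -0.0789 to 0.015 (exact permutation p = 0.6 with it). Leaving out young replicate 2, 3 or 4 or old replicate 1 or 3 also took the 14 calls to 8, 8, 7, 9 and 8. Without old replicate 4 the difference of the span slope was -0.124. Without young replicate 2 the median log2 fold change was -0.03. B and plasma cell markers summed to 43.2 to 51.1 CPM in old mice against 4.55 to 11.1 CPM in young ones. Macrophage and Kupffer cell markers summed to 161 to 291 CPM against 111 to 170 CPM, with 4 of 11 higher and none lower. The part of these cells in the levels was not tested.

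In the wild type, 33 of the 165 genes were lower under restriction than on free feeding and 1 was higher, beside 7.3% and 6.3% of all genes. The median log2 fold change was -0.28, with 0.04 over all genes, and 120 values were below 0. In 37 the restricted libraries lay below all the freely fed ones, against 9.06% of all genes. Of the 25 enzymes and transporters 10 were lower and none was higher, with a median of -0.49. B3galt1 had the largest fall, from 4.89, 8.38, 9.7 and 4.45 CPM to 0.0948, 1.07, 0.77 and 0.19 CPM (-3.76 ± 0.84, edgeR adjusted p = 0.005), and Adgrv1 went from 6.67, 9.84, 8.98 and 7.88 CPM to 0.806, 1.72, 1.22 and 0.19 CPM (-3.10 ± 0.38, adjusted p = 5.71e-06). Ntrk2 fell from 16.2, 13.8, 12.9 and 14 CPM to 3.04, 4.58, 2.63 and 3.74 CPM (-2.03 ± 0.29, adjusted p = 5.34e-05). None of the 3 overlapped. Slc39a11, a zinc transporter, fell by 1.42, Exoc4 by 1.51 and Ptprd by 1.11 on the log2 scale. Rad51b was the 1 that rose, to 15.5, 12, 6.42 and 5.7 CPM from 3.94, 2.26, 2.39 and 2.4 CPM (1.84 ± 0.35, adjusted p = 0.00112). Its mean was 9.9 CPM under restriction and 2.75 CPM on free feeding. It thus met the limit of 2 CPM partly through the restricted groups, where it stood higher.

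The restricted wild-type libraries differed among themselves. Their median deviation over the 165 genes was 0.017, 0.165, 0.341 and -0.345 in replicates 1 to 4. Without replicate 4, 20 genes were lower and 2 higher and the median was -0.17, and without replicate 3 the count called was 45 and the median -0.43. The share of counts from mitochondrial genes was 12.5 to 16.9% in this group and 10.7 to 11.8% on free feeding, and its part in the result was not tested. The span slope under 300 kb differed by -0.0429 (exact permutation p = 0.257), by -0.073 without freely fed replicate 1 and by -0.023 without freely fed replicate 4. With exonic length as a second term in the slope the difference was -0.16, at an exact permutation p of 0.0286 and an adjusted p of 0.0571.

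In the mutant, 9 of the 165 genes were lower under restriction and 5 were higher, beside 6.33% and 4.91% of all genes, with a median of -0.11 and 0.00 over all genes. The median was -0.04 without freely fed replicate 4 and -0.05 without restricted replicate 1. The share of counts from mitochondrial genes was 13.5 to 15% under restriction and 9.37 to 10.9% on free feeding, and its part in the result was not tested. In 18 the restricted libraries lay below all the freely fed ones, against 9.6% of all genes. Cadm1, Gtdc1, Pik3c2g, Rad51b and Tmtc2 were the 5 higher. Pik3c2g went from 2.52, 3.19, 4.56 and 3.3 CPM to 17.6, 10.9, 14.3 and 13.1 CPM (2.05 ± 0.23, edgeR adjusted p = 1.24e-06), above 3 of the 4 freely fed wild-type libraries in every case. Rad51b went from 1.01, 0.797, 0.926 and 1.72 CPM to 5.78, 3.27, 4.14 and 5.51 CPM (2.06 ± 0.39, adjusted p = 0.000702). Neither gene's groups overlapped. The mean of Rad51b was 1.11 CPM on free feeding and 4.67 CPM under restriction, so it met the limit of 2 CPM partly through the restricted groups. Tmtc2 was not called without freely fed replicate 1 or 2 or restricted replicate 1 or 2 (adjusted p up to 0.111), and Gtdc1 not without freely fed replicate 3 (0.0504). Adgrv1 fell by 2.44, Sugct by 0.76, Fggy by 0.72, Cux1 by 0.60 and Cpq by 0.47 on the log2 scale. Immp2l was at 4.22, 3.3, 3.2 and 2.41 CPM before and 3.97, 2.68, 2.92 and 2.98 CPM after restriction, which overlapped (-0.07 ± 0.21, adjusted p = 0.887).

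Whether the difference with restriction was unequal in the 2 genotypes was tested directly. Of the 165 genes, Pik3c2g, Fbxl17 and Pcca passed, all with a positive difference, mutant minus wild type, beside 0.906% of all genes higher and 0.591% lower. The difference of the log2 fold changes was 1.82 for Pik3c2g (edgeR adjusted p = 0.00231), 0.97 for Fbxl17, a ubiquitin ligase subunit (0.0405), and 0.76 for Pcca (0.0327). Fbxl17 was at 21.8, 33, 28.1 and 30.1 CPM in the freely fed wild type, 20.2, 16.5, 17.7 and 9.88 CPM in the restricted wild type, 10.8, 13.4, 12.5 and 13.5 CPM in the freely fed mutant and 17.9, 12.7, 12.1 and 13.3 CPM in the restricted mutant. Its level fell with restriction in the wild type and overlapped in the mutant. Pcca likewise went from 102 ± 12.2 to 62.4 ± 8.03 CPM in the wild type and from 49.8 ± 2.66 to 51.7 ± 8.31 CPM (SD, n = 4) in the mutant. Pik3c2g was called in all 16 fits that left out a library, Fbxl17 in 7 and Pcca in 8. Both Fbxl17 and Pcca were lost without freely fed wild-type replicate 4, freely fed mutant replicate 1, 3 or 4, or restricted mutant replicate 1 or 4. The count of called genes was 1 without freely fed wild-type replicate 4, freely fed mutant replicate 1 or 3, or restricted mutant replicate 4. The median difference over the 165 genes was 0.22, beside -0.04 over all genes, and it was 0.13 without restricted wild-type replicate 4 and 0.37 without restricted wild-type replicate 3.

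Summed over the 165 genes, the level was 4681 ± 45.3 CPM (SD, n = 4) in the freely fed young wild type, 4343 ± 482 CPM in the old one and 3752 ± 379 CPM in the restricted one. In the mutant it was 3372 ± 193 CPM in the youngest group, 2703 ± 250 CPM at 16 weeks and 2680 ± 72.2 CPM under restriction. The most counted genes weigh most in this sum. Dpyd, Adk and Vwa8 averaged 502, 465 and 291 CPM in the freely fed young wild type. They averaged 124, 202 and 154 CPM in the freely fed mutant of 16 weeks. The mutant already stood below all 4 freely fed wild-type libraries of 16 weeks at 7 weeks of age, for which no wild-type mice of the same age were analysed here. The order of the group means places old wild-type mice next to young ones, with old replicate 2 at 3628 CPM among the restricted wild-type values of 3302 to 4121 CPM. The freely fed and restricted mutants of 16 weeks, at 2424 to 3030 and 2604 to 2777 CPM, did not differ beyond their spread. Several of the comparisons share groups of libraries, so their values for the same genes are not independent.

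**Figure D5:**
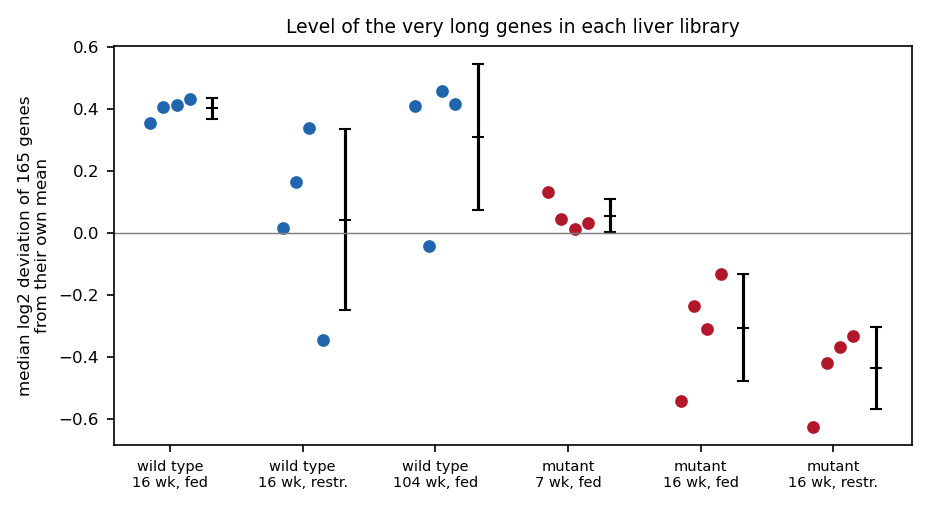
Median log2 deviation of the 165 very long genes from each gene's own mean over the 24 libraries, with 1 point per library (blue, wild type; red, mutant) and the mean ± SD of each group of 4 beside it. Freely fed wild-type libraries of 16 weeks lie between 0.357 and 0.435, mutant libraries of 16 weeks between -0.624 and -0.132, and replicate 2 at 104 weeks lies at -0.041, below the other 3 of its group.

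Over the 7 comparisons, 104 of the 165 genes were called in at least 1 and 61 in none. The 61 include Macf1, a linker of actin and microtubules that was among the most counted, at 123 ± 8.76 CPM in the freely fed wild type and 94.5 ± 14.5 CPM in the freely fed mutant (-0.38 ± 0.16, edgeR adjusted p = 0.144), and Palld, a protein of actin bundles, at 86.9 ± 5.77 and 60.3 ± 14.6 CPM (-0.53 ± 0.29, adjusted p = 0.271).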

How the data were processed

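The table holds liver messenger RNA counts of 24 libraries. The deposited values are raw counts per gene, made by the authors with featureCounts (Subread 1.6.4), after trimming (Trimmomatic 0.39) and alignment to GRCm38.p6 (STAR 2.7.0f), per the submitters' processing notes. The deposited gene length is the genomic span of the GENCODE M21 annotation to within 1 base in 152 of the 165 genes. Whether counting used strand is not given in the sources used here.

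Counts were fitted over all 6 groups with edgeR 4.0.16 in R 4.3.3 (TMM, filter by expression, quasi-likelihood test, Benjamini-Hochberg over 12690 genes, threshold 0.05). Levels printed for libraries and groups are counts per 1000000 of the library total times its TMM factor. The limit of 2 CPM used the library total alone. Slopes on span were compared by exact permutation tests. Named genes are the 12 highest by mean CPM, the 6 longest, in each comparison of groups the 4 largest called rises and 4 largest called falls without overlap, the fragile-site genes, up to 3 called genes with the smallest adjusted p of each role list, and the 3 genes on each side of either limit. Pde4b, Tmtc2, Bbs9, Tmem267 and Gpc3 lie outside it and were chosen after their values were seen. The genes, role lists, examples, promoters and the split by principal transcript were chosen with earlier results of these data known. Alternatives were DESeq2 1.42.0, no filter, other span limits, a replicate block, fits to the compared groups alone and leaving out each library. Values of 1 gene that the rule names are not reported here.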

Additional observations from a re-analysis of the deposited data

Results flagged for a closer look

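Level within a group was examined for a library far from the other 3 in 162 groups, for the 24 genes with printed values and for the summaries over the 165 genes by Dixon's ratio of the gap to the range. It picked out 8, where chance picks out about 1 in 20. Immp2l stood at 21.5 CPM and Rad51b at 3.94 CPM in replicate 1 of the freely fed wild type of 16 weeks, above the other 3 libraries. In the wild type of 104 weeks, replicate 2 stood below the others, with a median log2 deviation of the 165 genes of -0.041 and a summed level of 3628 CPM. In the same group Wwox stood apart at 5.75 CPM, Med12l at 2.66 CPM and Ptprd at 52.2 CPM in 1 library each. Exoc4 stood apart at 9.61 CPM in the freely fed mutant of 16 weeks.

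The difference between restricted and free feeding was unequal in the 2 genotypes for 3 genes by edgeR's test of the difference itself. The log2 fold change in the mutant minus that in the wild type was 1.82 for Pik3c2g, 0.97 for Fbxl17 and 0.76 for Pcca. The last 2 were lost on leaving out several libraries.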

How the results depend on the processing

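Of 1935 settings of the 147 calls of named genes, 1664 kept the call, 271 lost it and 0 changed direction, and 87 calls held in every setting. In what follows, the comparisons are the mutant against the wild type on free feeding and under restriction, 104 against 16 weeks, 16 against 7 weeks, restriction in the wild type and in the mutant, and the difference of the last 2, in that order. Fitted to the compared groups alone, the genes called were 2202 on free feeding, 877 under restriction, 568 for 16 against 7 weeks, 986 for restriction in the wild type and 126 for the difference (1262, 2320, 87, 1726 and 190 in the fit to all groups), and the very long genes called were 21, 31 and 20 under restriction, for 16 against 7 weeks and for restriction in the wild type. DESeq2 called 189 genes for 16 against 7 weeks, and 370 genes and 5 very long genes for the difference. With a span of at least 200 kb (364 genes) 115, 98, 33, 63, 29 and 6 were called in the 6 comparisons other than 16 against 7 weeks, and with at least 500 kb (50 genes) 24, 20, 5, 3, 13, 5 and 0 in all 7. The median log2 fold change on free feeding was then -0.53 and -0.83, and -0.83 with a principal transcript of at least 300 kb, an alternative added after the data were seen. In these, fewer or more genes entered. Otherwise the cause was not tested. Leaving out each library, the genes called ranged from 871 to 1082, 1804 to 2256, 792 to 1533, 29 to 76, 1051 to 2009, 1053 to 1414 and 109 to 225, and the very long genes called from 51 to 63, 47 to 70, 7 to 17, 2 to 7, 22 to 45, 10 to 16 and 1 to 4. With replicate numbers as a block, 65, 53, 14, 6, 35, 14 and 2 very long genes were called. The numbers did not pair the libraries: over 60 pairs with the same number the median correlation of deviations was 0.02 (-0.24 to 0.31), and 8 of 24 libraries correlated best with their own number. No slope on span passed adjustment in any alternative (lowest adjusted p 0.0571, exact permutation). With 4 libraries a group, passing needs several of the 6 comparisons at the smallest p, so this decides little. Genes near 2 CPM rest on few counts, and 4 libraries a group limit an exact test to p = 0.0286.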
